A study of Mus musculus with 19 samples.

Results

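The 3 sequences described here, L1Md_A_5end, L1Md_A_3end and L1_Mm_orf2, belong to the LINE-1 (L1) retrotransposons of the mouse. They were taken by name from the 259 retrotransposon subfamilies listed for each library, in which L1 makes up 19. The study asked how retrotransposons are held down in male germ cells that lack piRNAs or *de novo* DNA methylation. It sequenced mRNA from EpCAM-positive spermatogonia sorted from testes on postnatal day 7 (P7), in 19 libraries. EpCAM is a surface marker of undifferentiated spermatogonia. The *Dnmt3l* line gave 2 wild-type (WT), 3 heterozygous (het) and 3 homozygous knockout (KO) libraries, and the *Pld6* line gave 3 WT, 3 het and 5 KO libraries. These numbers follow the sample labels, whereas the methods give 3 WT and 2 het mice for *Dnmt3l*. Both mutant alleles had been backcrossed to C57BL/6J, each line had its own WT mice, and no WT or het library was shared between the lines. Each library is a bulk measurement of a sorted population, so more expressing cells and more RNA per cell cannot be told apart in any value below. Transcripts of *Pld6*, *Dnmt3l* and cell type marker genes were not analysed here, because the values cover retrotransposons.

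L1 is an autonomous retrotransposon that moves by copying its RNA into DNA. Its 5′ end carries the promoter and is followed by ORF1, which encodes an RNA-binding protein, by ORF2, which encodes an endonuclease and reverse transcriptase, and by a 3′ region that ends in a poly(A) tract. Mouse L1 subfamilies are told apart by their promoter repeats, and A is one of the young subfamilies that still move. Many genomic copies are cut short at the 5′ end and keep ORF2 or 3′ sequence without a promoter. The sequence databases hold the 5′ region with ORF1, ORF2 and the 3′ region as separate consensus entries, so that L1Md_A_5end is the promoter-bearing part of A, L1Md_A_3end is its 3′ part, and L1_Mm_orf2 is an ORF2 that is not assigned to one promoter type. DNMT3L is a catalytically inactive partner of the *de novo* DNA methyltransferases and is needed for retrotransposon methylation in fetal male germ cells. PLD6 is a mitochondrial protein needed to make piRNAs, small RNAs that guide silencing and methylation to retrotransposons.

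Expression is given in RPM, the reads mapped to a consensus scaled to the total of mapped reads. Summed over all 259 subfamilies, it ranged from 2103 to 4413 RPM in the 11 WT and het libraries and from 7178 to 14603 RPM in the 8 KO libraries. The read depth behind these values is unknown. For tests across subfamilies, log2(RPM + 1) was fitted with limma to the 114 subfamilies with at least 1 RPM in at least 2 libraries, with all 6 groups in 1 fit and Benjamini-Hochberg adjustment. All 3 L1 sequences passed that filter. Fold changes on this scale understate the change of a subfamily at low RPM, which here touches L1Md_A_5end in the libraries that are not KO.

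Among the *Pld6* libraries, 3 stood apart from the rest in the L1 sequences themselves, namely KO replicate 4, het replicate 1 and het replicate 3, which were singled out after their values were seen. Their RPM of L1Md_A_3end per RPM of L1_Mm_orf2 was 0.236, 0.285 and 0.249, while the other 16 libraries lay between 0.141 and 0.184. KO replicate 4 also had the lowest L1Md_A_5end of the 5 *Pld6* KO libraries, and the 2 het libraries had the lowest L1Md_A_5end of all 19. Their L1Md_A_3end was not low, at 372 RPM in a KO range of 357 to 423 RPM and at 36.0 and 30.4 RPM against 27.9 to 35.5 RPM in *Pld6* WT. Het replicate 1 listed 159 of the 259 subfamilies at 0, against 60 to 90 in the other 18 libraries. Its most frequent RPM value above 0 was 0.35, in 4 subfamilies, against 0.03 to 0.14 elsewhere. It also listed values as low as 0.03, so no coarser step between its low values is read from this. In KO replicate 4 some non-L1 ratios of an internal region to its own LTR were low as well, with MMERGLN-int per MMERGLN_LTR at 6.73 against 11.7 to 13.7 in the other 4 *Pld6* KO libraries. Its IAPEz-int per IAPLTR1_Mm was 14.6 against 20.7 to 24.1. The part that these differences between libraries have in the results below was not tested, and values without some or all of the 3 libraries stand beside the tests and spreads they move most.

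L1Md_A_5end RNA was scarce in every library that carried a functional allele and abundant in both KO groups. It was at 8.58 and 9.51 RPM in *Dnmt3l* WT and at 8.86, 10.4 and 7.71 RPM in *Dnmt3l* het. In *Dnmt3l* KO it was at 149, 108 and 148 RPM. All 3 KO values lay far above the 5 other values of the line. In the *Pld6* line, WT libraries had 7.95, 12.6 and 12.3 RPM and het libraries had 2.21, 11.7 and 4.97 RPM. The 5 *Pld6* KO libraries had 484, 414, 362, 176 and 502 RPM. Replicate 4, the library at 176 RPM, was the lowest of them and was still above the highest *Dnmt3l* KO library.

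L1Md_A_3end rose by a similar amount in every library of a KO group. It was at 32.3 and 29.9 RPM in *Dnmt3l* WT, at 23.8, 27.1 and 31.6 RPM in *Dnmt3l* het and at 118, 99.7 and 125 RPM in *Dnmt3l* KO. In the *Pld6* line it was at 27.9, 31.8 and 35.5 RPM in WT, at 36.0, 34.2 and 30.4 RPM in het and at 357, 423, 364, 372 and 385 RPM in KO. The 5 *Pld6* KO values had a coefficient of variation of 6.90%, against 33.8% for L1Md_A_5end in the same libraries. Without replicate 4 these were 7.80% and 14.7%. Replicate 4 was in the middle of the *Pld6* KO group here, and het replicate 1 was the highest of its group.

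L1_Mm_orf2, the part that encodes the reverse transcriptase, was at 202 and 184 RPM in *Dnmt3l* WT and at 152, 167 and 172 RPM in *Dnmt3l* het. *Dnmt3l* KO libraries had 759, 662 and 891 RPM. The *Pld6* line had 160, 204 and 196 RPM in WT and 126, 229 and 122 RPM in het, with the 2 low het values in the libraries that stood apart. *Pld6* KO libraries had 2280, 2713, 2546, 1573 and 2542 RPM, and replicate 4 was again the lowest. For each of the 3 sequences the order of the groups was the same at the top, with *Pld6* KO highest, *Dnmt3l* KO next and no overlap between these and the other 4 groups. The share of all tested subfamilies with this joint order was not counted. The WT and het libraries of both lines spread over 2.21 to 12.6 RPM of L1Md_A_5end, 23.8 to 36.0 RPM of L1Md_A_3end and 122 to 229 RPM of L1_Mm_orf2. The RPM of different sequences are not compared in size, because consensus lengths were not used here.

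**Figure D1:**
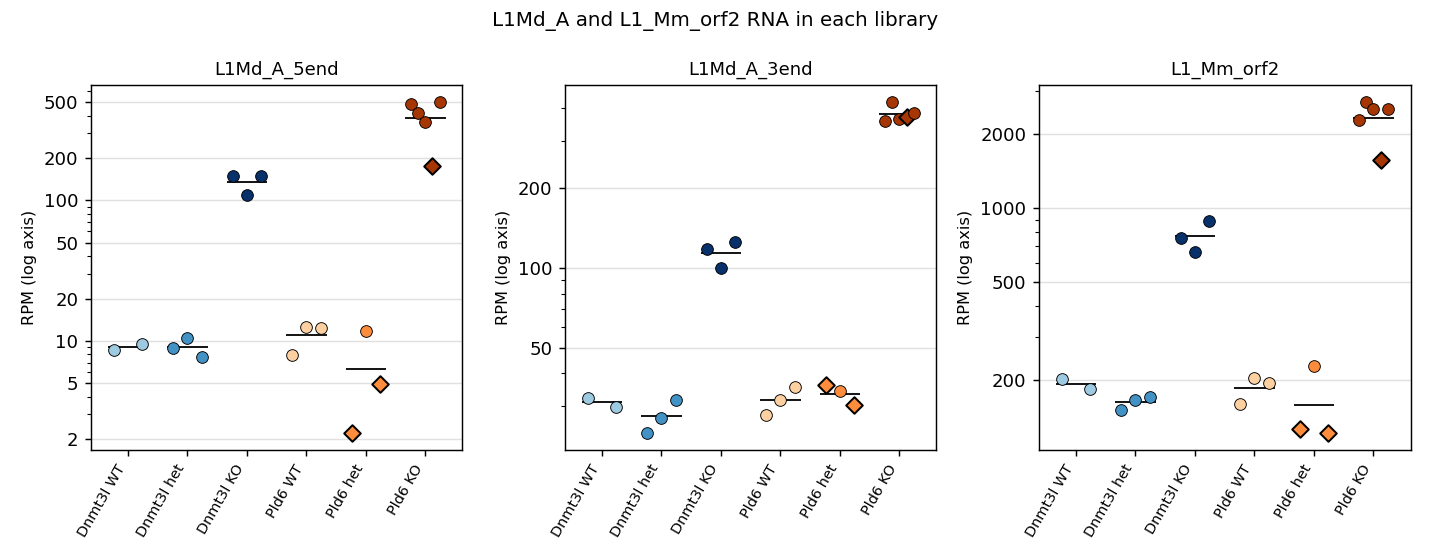
RPM of each L1 sequence (log axis) in the 19 libraries by group. Each point is a library, lines are group means, and diamonds mark *Pld6* KO replicate 4 and *Pld6* het replicates 1 and 3. The *Pld6* KO points lie at the top of each panel and the *Dnmt3l* KO points next, while the WT and het points share one low range.

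All 3 sequences were up-regulated in both KO groups, and the 5′ end had the largest fold change in each. In *Pld6* KO the log2 fold change against WT was 4.96 for L1Md_A_5end (95% confidence interval 4.21 to 5.71), 3.54 for L1Md_A_3end (3.26 to 3.83) and 3.62 for L1_Mm_orf2 (3.15 to 4.08). The adjusted p from limma was 8.7e-10, 7.6e-14 and 1.0e-10. In the same comparison 35 of 114 subfamilies, 30.7%, were called higher. L1Md_A_5end stood at position 2 in the order of log2 fold changes, between MMERGLN-int (5.07) and IAPA_MM (4.62), while L1_Mm_orf2 and L1Md_A_3end stood side by side at positions 6 and 7, between IAPEz-int (3.87) and IAPLTR2b (3.14). Every *Pld6* KO library was above every *Pld6* WT library for all 3, which was so for 35.1% of the tested subfamilies, and above every het library as well, which was so for 31.6%.

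In *Dnmt3l* KO the log2 fold changes were 3.75 (2.82 to 4.68) for L1Md_A_5end, 1.84 (1.48 to 2.19) for L1Md_A_3end and 1.98 (1.40 to 2.56) for L1_Mm_orf2, with adjusted p of 7.2e-07, 3.0e-08 and 6.9e-06 from limma. Here 44 of 114 subfamilies, 38.6%, were called higher. L1Md_A_5end was at position 8, between IAPLTR2a (3.82) and IAPLTR1a_Mm (3.37). L1_Mm_orf2 at position 16 followed RLTR10B (2.03), and L1Md_A_3end at position 18 lay between RLTR10C (1.94) and L1Md_Gf_5end (1.83). The KO libraries were again above all WT libraries of the line for all 3, as they were for 67.5% of the tested subfamilies, and above all WT and het libraries, as they were for 59.6%. Without the 3 libraries that stood apart, the *Pld6* KO values were 5.22, 3.55 and 3.75 in the same order. The *Dnmt3l* KO values could not move, since those libraries are all of the *Pld6* line. Only their SE could, through the spread shared by all groups, and for L1Md_A_5end in *Dnmt3l* KO it went from 0.44 to 0.21.

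The 3 sequences kept their direction and their call in both KO comparisons under every scaling tried, although the size of the change moved. Scaling by median ratios shifted the median of all 114 log2 fold changes, which as deposited was 0.26 for *Pld6* KO and 0.50 for *Dnmt3l* KO, to -0.14 and -0.02. Under it L1Md_A_5end was at 4.46 and 3.10, L1Md_A_3end at 3.03 and 1.18, and L1_Mm_orf2 at 3.10 and 1.32 in *Pld6* KO and *Dnmt3l* KO. Scaling by the summed RPM of the B1 and B2 SINEs, which are short non-autonomous elements, moved these medians to 0.45 and 1.01. It gave 5.18 and 4.41 for L1Md_A_5end, 3.75 and 2.58 for L1Md_A_3end and 3.82 and 2.76 for L1_Mm_orf2. With median ratios, 29 subfamilies were called higher and 16 lower for *Pld6* KO, instead of 35 and 0. For *Dnmt3l* KO the same scaling gave 27 higher and 9 lower, instead of 44 and 2.

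The unequal rise changed the proportion of 5′ end to the other parts. A ratio between sequences within a library does not depend on the mapped total, so it is free of the scaling. In *Dnmt3l* WT the RPM of L1Md_A_5end per RPM of L1Md_A_3end was 0.265 and 0.318, in het 0.372, 0.383 and 0.244, and in KO 1.27, 1.09 and 1.18. *Pld6* libraries had 0.285, 0.395 and 0.347 in WT, 0.0614, 0.344 and 0.163 in het, and 1.36, 0.979, 0.993, 0.474 and 1.31 in KO. All 8 KO libraries were above all 11 others. The KO library nearest to the others was *Pld6* KO replicate 4 at 0.474, against a highest value of 0.395 in WT and het. Such a split was not confined to these parts, since MMERGLN-int per MMERGLN_LTR was 6.73 to 14.8 in KO libraries and 1.46 to 4.61 in the others. IAPEz-int per IAPLTR1_Mm did overlap between KO and other libraries. The share of all possible ratios that split in this way was not counted.

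Between *Pld6* KO and WT this ratio differed 2.83-fold in its geometric mean (SE 0.38 on the log2 scale), and every KO library was above every WT library. The two-sided exact permutation test gave p = 0.0357, the smallest p that 5 libraries against 3 allow, and 0.268 after adjustment over the 15 ratio comparisons made, which does not pass the threshold. Ratio p-values against WT and het together or with libraries left out, here and below, were outside those 15 and were not adjusted. Against WT and het together the rise was 4.24-fold (exact permutation p = 0.00433, the smallest for 5 against 6). Without the 3 libraries that stood apart it was 3.37-fold (exact permutation p = 0.0286, the smallest for 4 against 4). In *Dnmt3l* KO the log2 difference from WT was 2.02 (SE 0.13), a 4.05-fold rise, in a design that allows no exact p below 0.2. Against WT and het together it was 3.78-fold (exact permutation p = 0.0357, the smallest for 3 against 5).

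The 5′ end also separated the KO libraries when it was set against ORF2. The RPM of L1Md_A_5end per RPM of L1_Mm_orf2 was 0.0424 and 0.0518 in *Dnmt3l* WT, 0.0584, 0.0624 and 0.0450 in *Dnmt3l* het, and 0.197, 0.163 and 0.166 in *Dnmt3l* KO. It was 0.0498, 0.0615 and 0.0631 in *Pld6* WT, 0.0175, 0.0512 and 0.0408 in *Pld6* het, and 0.212, 0.153, 0.142, 0.112 and 0.197 in *Pld6* KO. No KO library overlapped with a library of another genotype, and here too the share of other ratios that split so was not counted. The rise against WT was 2.75-fold in *Pld6* KO (log2 1.46, SE 0.24, exact permutation p = 0.0357, adjusted 0.268) and 3.73-fold in *Dnmt3l* KO (log2 1.90, SE 0.15, exact permutation p = 0.2). Against WT and het together it was 3.63-fold (exact permutation p = 0.00433) and 3.40-fold (exact permutation p = 0.0357). Without the 3 libraries that stood apart the first of these was 3.10-fold (exact permutation p = 0.0286, the smallest for 4 against 4).

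The proportion of 3′ end to ORF2 moved little between KO and WT. L1Md_A_3end per L1_Mm_orf2 was 0.160 and 0.163 in *Dnmt3l* WT, 0.157, 0.163 and 0.184 in *Dnmt3l* het, and 0.155, 0.151 and 0.141 in *Dnmt3l* KO. In the *Pld6* line it was 0.175, 0.156 and 0.182 in WT, 0.285, 0.149 and 0.249 in het, and 0.156, 0.156, 0.143, 0.236 and 0.151 in KO. Apart from the 3 libraries already named, values had a coefficient of variation of 7.81% over 16 libraries, across which the RPM of both sequences spanned more than 10-fold. Those 3 had been named for this same ratio, so a narrower band without them follows in part from that choice. With them the coefficient of variation was 19.2% over the 8 KO libraries and 23.6% over the 11 WT and het libraries. *Pld6* KO differed from WT by -0.04 on the log2 scale (SE 0.18, exact permutation p = 0.857), and by -0.17 without replicate 4 (exact permutation p = 0.171). The 3 *Dnmt3l* KO libraries were below both WT libraries on the log2 scale (-0.12, SE 0.054, exact permutation p = 0.2) and below the WT and het libraries together at 0.900 of their ratio (exact permutation p = 0.0357, the smallest for this design).

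**Figure D2:**
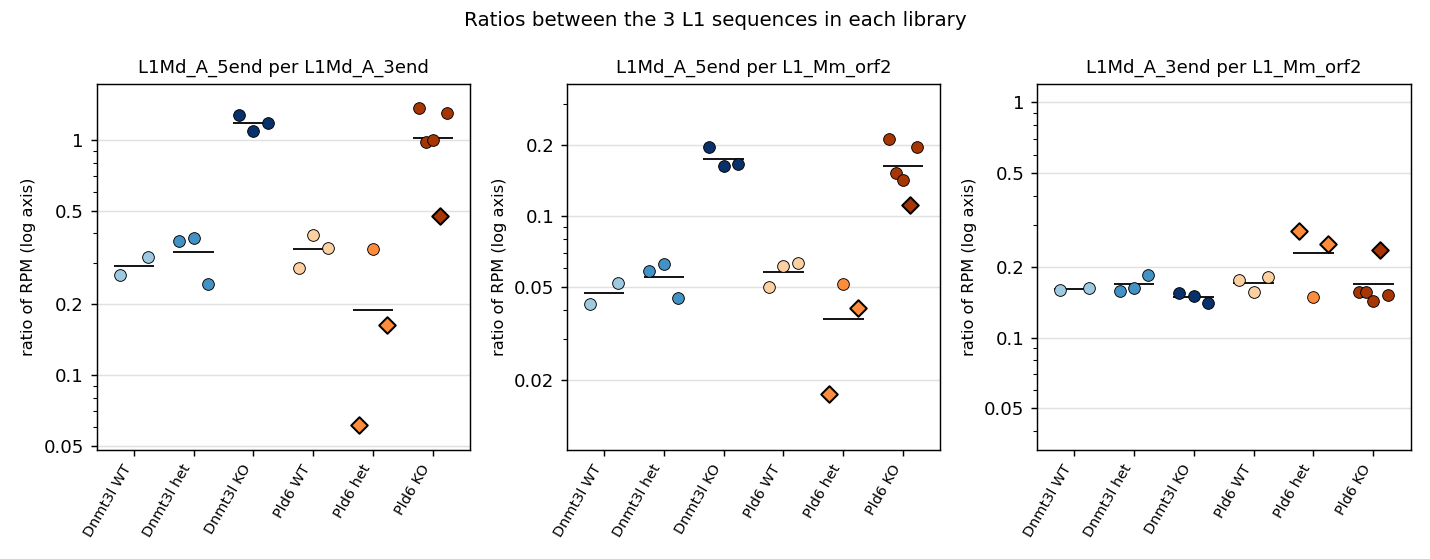
RPM of one L1 sequence per RPM of another (log axis, the same span in each panel) by group, with a point per library, lines for group means and diamonds for *Pld6* KO replicate 4 and *Pld6* het replicates 1 and 3. Both ratios with the 5′ end on top separate all 8 KO libraries from the other 11, whereas the 3′ end per ORF2 stays between 0.141 and 0.184 in all libraries but the diamonds.

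The proportions of the 3 sequences overlapped between the mutants, although their amounts did not. *Pld6* KO and *Dnmt3l* KO differed by -0.29 on the log2 scale in 5′ end per 3′ end (SE 0.37, exact permutation p = 0.536), by -0.14 in 5′ end per ORF2 (SE 0.23, exact permutation p = 0.607) and by 0.16 in 3′ end per ORF2 (SE 0.18, exact permutation p = 0.286). Without *Pld6* KO replicate 4 these differences were -0.04, -0.01 and 0.03. Such p-values do not show that the proportions are equal, since 5 against 3 libraries leave the standard errors given. Whether the rise of each ratio over its own WT differed between the lines was not tested.

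The RNA gained over the WT mean was also split between the parts. *Pld6* KO gained 377 ± 131 RPM of L1Md_A_5end, 348 ± 26.2 RPM of L1Md_A_3end and 2145 ± 451 RPM of L1_Mm_orf2 (SD, n = 5). *Dnmt3l* KO gained 126 ± 23.4, 83.1 ± 13.1 and 578 ± 115 RPM (SD, n = 3). The gain of 5′ end per gain of 3′ end was 1.08 ± 0.386 in *Pld6* KO, with single libraries from 0.486 in replicate 4 to 1.46, and 1.52 ± 0.0943 in *Dnmt3l* KO, with 1.45 to 1.62. The 2 ranges overlapped at their ends, and this difference was not tested. The gain of 3′ end per gain of ORF2 was 0.169 ± 0.0429 and 0.145 ± 0.00895, against mean ratios of 0.171 and 0.161 in the WT libraries of the same lines.

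*Pld6* KO spermatogonia held more of each L1 sequence than *Dnmt3l* KO spermatogonia, in a direct comparison of the mutants that was added after the data had been seen. Mutation and mouse line go together in this comparison and cannot be told apart. The log2 difference was 1.44 for L1Md_A_5end (SE 0.36, adjusted p = 0.00422 from limma), 1.73 for L1Md_A_3end (SE 0.13, adjusted p = 1.7e-08) and 1.58 for L1_Mm_orf2 (SE 0.22, adjusted p = 1.4e-05). The means stood 2.87-, 3.33- and 3.02-fold apart. Only 8 of 114 subfamilies, 7.02%, were called higher in *Pld6* KO, and 28 were called lower. Positions 2, 3 and 4 in the order were taken by L1Md_A_3end, L1_Mm_orf2 and L1Md_A_5end, behind IAPEy-int (1.92) and ahead of IAPEY_LTR (1.20). Every *Pld6* KO library was above every *Dnmt3l* KO library for all 3 sequences (exact permutation p = 0.0357, the smallest for 5 against 3), which held for 8.77% of the tested subfamilies. The calls held under all 3 other scalings, with log2 differences from 1.63 to 2.20 for L1Md_A_5end, 1.92 to 2.49 for L1Md_A_3end and 1.77 to 2.35 for L1_Mm_orf2. The split of all calls into higher and lower was 12 and 14 with median ratios, 8 and 8 with B1 and B2, and 19 and 9 with the RPM outside L1 and IAP.

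When each KO was first set against its own WT, the difference between the mutants depended on the scaling. As deposited, the change in *Dnmt3l* KO minus that in *Pld6* KO was -1.71 for L1Md_A_3end and -1.64 for L1_Mm_orf2 on the log2 scale (adjusted p = 3.0e-05 and 0.00340 from limma), among 4.39% of the tested subfamilies that were called with the larger rise in *Pld6* KO. Scaled by the summed B1 and B2 RPM, these differences were -1.17 and -1.07 and were not called (adjusted p = 0.295 and 0.360 from limma). The B1 and B2 sum itself was lower in *Dnmt3l* KO, at 1215 to 1408 RPM, than in the *Dnmt3l* WT libraries, at 1881 and 2588 RPM. In the *Pld6* line it was 616 to 1288 RPM in WT and 563 to 1529 RPM in KO. This scaling moved the change of L1Md_A_3end from 1.84 to 2.58 in *Dnmt3l* KO and from 3.54 to 3.75 in *Pld6* KO. The sum also differed between the WT groups of the lines. For L1Md_A_5end the difference was -1.21 with a 95% confidence interval of -2.41 to -0.02, which did not pass after adjustment (adjusted p = 0.174 from limma). Without the 3 libraries that stood apart it was -1.47 (adjusted p = 0.00158 from limma), and without *Pld6* KO replicate 4 alone the adjusted p was 0.0487. Low L1Md_A_5end was among the traits by which these libraries stood apart. Both p-values thus follow a choice tied to the tested value, and no difference is read from them. In total 14 subfamilies were called in this comparison, 9 with the larger rise in *Dnmt3l* KO and 5 in *Pld6* KO, against 5 and 7 with median ratios and 4 and 0 with B1 and B2.

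**Figure D3:**
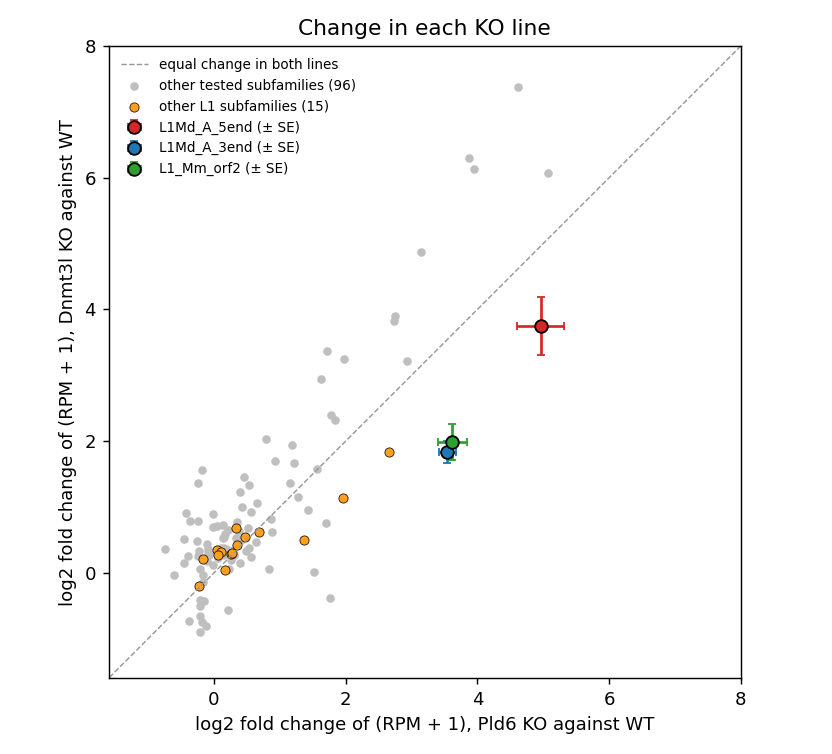
Log2 fold change of RPM + 1 in *Pld6* KO (x axis) and *Dnmt3l* KO (y axis), each against its own WT, for the 114 tested subfamilies. Grey points are 96 subfamilies outside L1, orange points 15 other L1 subfamilies, and large points with ± SE bars the 3 L1 sequences, which lie below the dashed line of equal change.

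**Figure D4:**
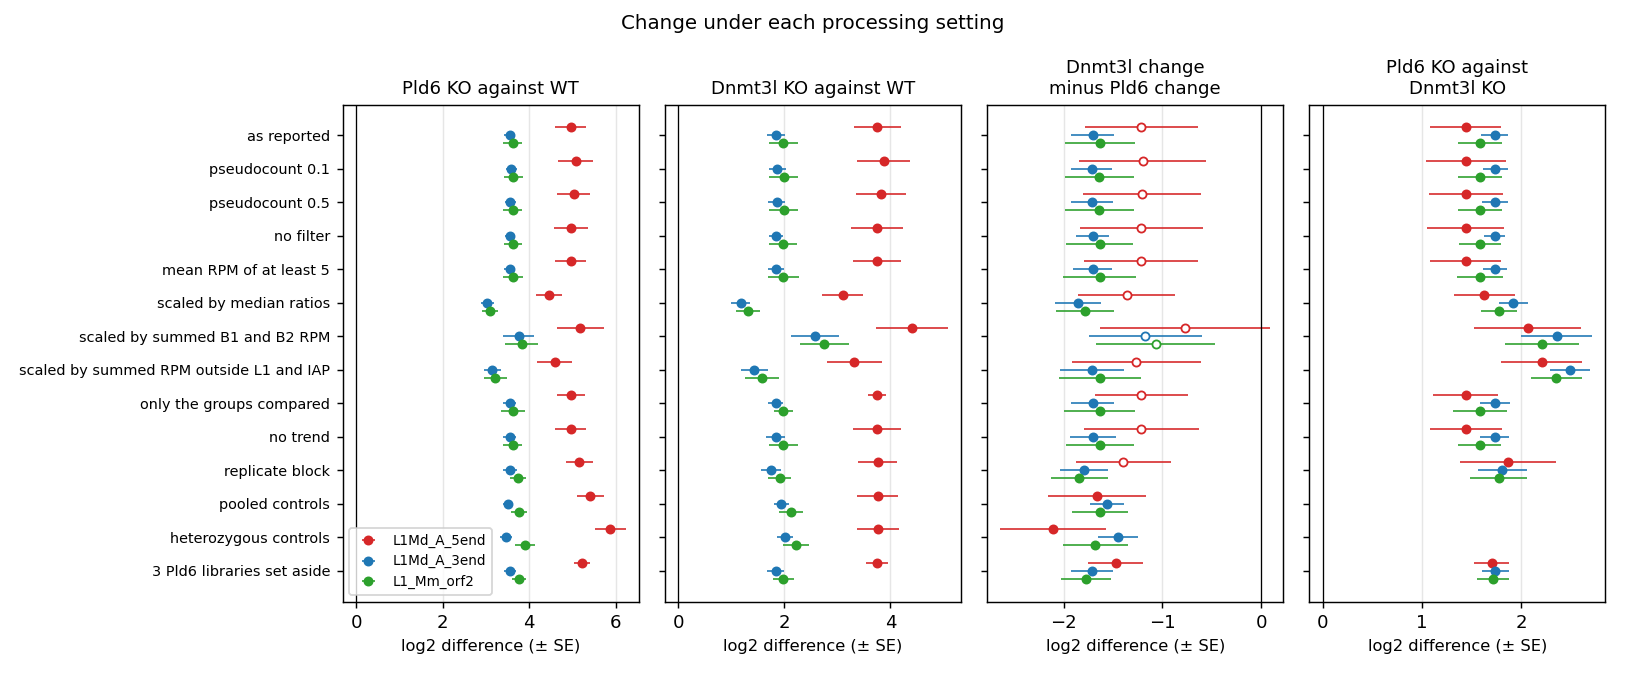
Log2 difference (± SE) of the 3 L1 sequences under each processing setting in 4 comparisons. Filled points passed an adjusted p of 0.05 in limma and open points did not. Both comparisons of a KO with WT and the comparison between the KO groups are filled throughout, whereas the difference of the changes is open for the 5′ end as reported and for all 3 sequences when scaled by B1 and B2 RPM.

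The 3 sequences made up more of the L1 signal in each KO than in its controls. In the 11 WT and het libraries they held between 40.9% and 47.9% of the RPM of the 19 L1 subfamilies. They held 65.8%, 64.6% and 67.9% in *Dnmt3l* KO and from 79.9% to 84.2%, with a median of 82.8%, in *Pld6* KO. The 3 sets of libraries did not overlap. The share of L1Md_A_5end alone went from 0.643% to 2.25% in WT and het libraries to 8.04% to 9.58% in *Dnmt3l* KO and 6.63% to 12.9% in *Pld6* KO. For L1Md_A_3end, *Pld6* het replicate 1 had 10.5% of the L1 signal, which is more than 7 of the 8 KO libraries had. Of the L1 RPM gained over the WT mean, the 3 sequences took 88.8% ± 1.12 in *Pld6* KO (SD, n = 5) and 80.2% ± 0.848 in *Dnmt3l* KO (SD, n = 3). The other 16 L1 subfamilies together rose from between 238 and 325 RPM in *Pld6* WT to between 535 and 754 RPM in *Pld6* KO, and from 346 and 304 RPM to between 476 and 551 RPM in the *Dnmt3l* line.

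The mutants differed more in how much of the whole retrotransposon signal these sequences took. They held 4.63% to 11.2% of the RPM of all 259 subfamilies in the WT and het libraries of both lines. In *Dnmt3l* KO they held 6.81% to 8.11%, which is inside that range. It is above the WT and het libraries of the *Dnmt3l* line itself, which held 4.63% to 6.60%. In *Pld6* KO they held 29.6% to 47.2%. Of the RPM gained over WT in all subfamilies together, they took 54.4% ± 9.93 in *Pld6* KO (SD, n = 5) and 8.18% ± 0.987 in *Dnmt3l* KO (SD, n = 3). These shares are descriptions of composition and were not tested.

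**Figure D5:**
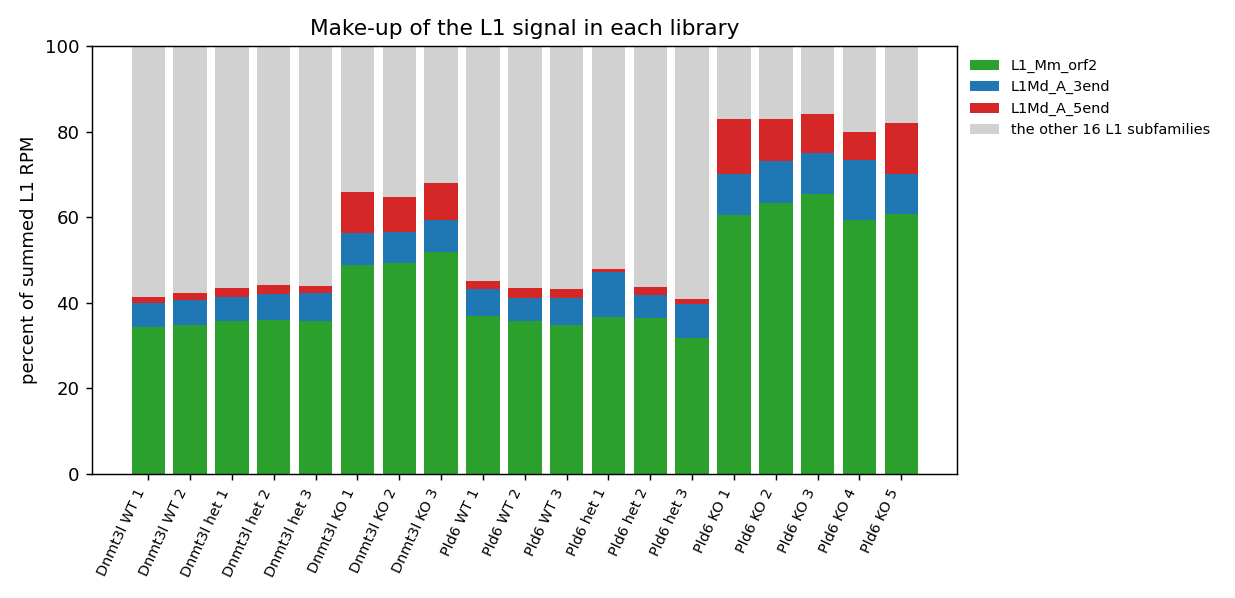
Percent of the summed L1 RPM taken by each of the 3 L1 sequences and by the other 16 L1 subfamilies together in each library. The coloured part covers 40.9% to 47.9% in WT and het libraries, 64.6% to 67.9% in *Dnmt3l* KO and 79.9% to 84.2% in *Pld6* KO.

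Loss of 1 allele gave no called change. In *Pld6* het against WT the log2 differences were -0.91 for L1Md_A_5end (SE 0.40, adjusted p = 0.624 from limma), 0.08 for L1Md_A_3end and -0.28 for L1_Mm_orf2. No subfamily passed the threshold in limma, and 5 of 114 had an unadjusted p under 0.05. The value for L1Md_A_5end was the lowest of all 114 and rested on the libraries that stood apart. Without those 3 libraries, *Pld6* het was a single library and the differences were 0.12, 0.11 and 0.30, with the lone library assumed to vary like the other groups. In *Dnmt3l* het against WT they were -0.02, -0.18 and -0.24, with 0 subfamilies called and 0 at an unadjusted p under 0.05 in limma. The 5′ end per 3′ end ratio differed from WT by -1.17 on the log2 scale in *Pld6* het (exact permutation p = 0.2, with 0.1 the smallest for 3 against 3) and by 0.17 in *Dnmt3l* het (exact permutation p = 0.6). The *Pld6* het value rested on single libraries, with -0.52 without het replicate 1 and -1.76 without het replicate 2. With het replicates 1 and 3 both set aside, the remaining het library had a ratio of 0.344 beside a geometric mean of 0.339 in *Pld6* WT.

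No difference between the WT groups of the 2 lines was called for these sequences. *Pld6* WT minus *Dnmt3l* WT was 0.23 for L1Md_A_5end (95% confidence interval -0.71 to 1.16), 0.02 for L1Md_A_3end (-0.33 to 0.38) and -0.06 for L1_Mm_orf2 (-0.64 to 0.52) on the log2 scale. Of 114 subfamilies 1, or 0.877%, was called in this comparison, and it was none of the 3. Scaling by B1 and B2 RPM moved the 3 differences to 1.29, 1.18 and 1.14, none of which was called.

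Beside the 3 sequences, some of the other L1 subfamilies were called. Of the 16 other L1 subfamilies 15 were tested, and in *Pld6* KO 4 were called higher and none lower, beside 30.7% called higher over all 114 tested subfamilies, with a median log2 fold change of 0.27 against 0.26 over all. In *Dnmt3l* KO 3 were called higher and none lower, beside 38.6% over all tested, with a median of 0.35 against 0.50. Among promoter-bearing 5′ ends 1 of 5 was called in each KO, and it was L1Md_Gf_5end, the 5′ end of another young subfamily, at 83.2 ± 23.8 RPM in *Pld6* KO (SD, n = 5) and 46.9 ± 6.50 RPM in *Dnmt3l* KO (SD, n = 3), from 12.2 and 12.4 RPM in WT. *Pld6* KO replicate 4 had 45.0 RPM of it, and the rest of that group had 75.7 to 103 RPM, so that the low 5′ end of this library was not confined to A. The RPM of L1Md_Gf_5end per RPM of L1Md_A_5end went from 0.948 to 1.76 in WT and het libraries to 0.325 to 0.368 in *Dnmt3l* KO and 0.204 to 0.256 in *Pld6* KO.

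The only other ORF2 entry, L1_Mus3_orf2, was called in *Pld6* KO (log2 fold change 1.37, SE 0.21, adjusted p = 1.5e-05 from limma) and was at 0.50 in *Dnmt3l* KO, which was not called. Per RPM of L1_Mm_orf2 it fell from between 0.320 and 0.483 in WT and het libraries to between 0.144 and 0.170 in *Dnmt3l* KO and between 0.0638 and 0.0764 in *Pld6* KO. Of 8 other 3′ ends, 2 were called in both KO groups. L1Md_T_3end, the 3′ end of a further young subfamily, had log2 fold changes of 1.96 for *Pld6* KO and 1.13 for *Dnmt3l* KO. L1Md_F2_3end had 0.69 and 0.63. Related L1 sequences are alike enough that a read of 50 bases can fit several of them, and how such reads were assigned is not given in the sources used here. Rises of similar sequences can therefore not be told from reads shared with them.

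Across the 19 libraries the subfamilies whose log2(RPM + 1) followed these sequences most closely were other L1. For L1Md_A_5end the closest were L1Md_Gf_5end (Pearson r = 0.991), L1_Mm_orf2 (0.986) and L1Md_T_3end (0.973). For L1Md_A_3end they were L1Md_T_3end (0.988), L1_Mm_orf2 (0.987) and L1Md_A_5end (0.957), and for L1_Mm_orf2 they were L1Md_T_3end (0.991), L1Md_A_3end (0.987) and L1Md_A_5end (0.986). These coefficients describe 19 libraries that fall into KO and other libraries, so they mostly carry that split, and no p is given.

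Relations were also taken inside the 11 WT and het libraries, where the coefficient of variation of the RPM was 35.6% for L1Md_A_5end, 11.9% for L1Md_A_3end and 19.1% for L1_Mm_orf2. On log2 RPM, L1Md_A_5end and L1_Mm_orf2 had a Pearson r of 0.807 (permutation p = 0.00127, adjusted over 3 relations 0.00381) and a Spearman rho of 0.755 (permutation p = 0.0101, adjusted 0.0303). Without the 2 libraries farthest from the median in L1Md_A_5end, which were *Pld6* het replicates 1 and 3, r was 0.633 and rho 0.567 over 9 libraries (permutation p = 0.0707 and 0.121). The relation was weaker without those libraries. Leaving them out also narrows the range, so how far the relation rests on them cannot be told. Within the 6 *Pld6* libraries, which include those 2 het libraries, r was 0.877 (exact permutation p = 0.0153) and rho 0.771 (exact permutation p = 0.103). No coefficient was taken over the 5 *Dnmt3l* libraries, since none was computed for fewer than 6. In those the highest L1Md_A_5end, 10.4 RPM in het replicate 2, went with 167 RPM of L1_Mm_orf2, and the highest L1_Mm_orf2, 202 RPM in WT replicate 1, went with 8.58 RPM of L1Md_A_5end, so the highest values fell in different libraries. L1Md_A_5end and L1Md_A_3end had an r of -0.23 (permutation p = 0.494) and a rho of 0.0273 (permutation p = 0.947). L1Md_A_3end and L1_Mm_orf2 had an r of 0.241 (permutation p = 0.477) and a rho of 0.373 (permutation p = 0.263), and r was 0.134 without *Dnmt3l* het replicates 1 and 2, the 2 farthest in L1Md_A_3end. With *Pld6* het replicates 1 and 3 left out instead, a choice made after the data had been seen, r was 0.844 and rho 0.850 over 9 libraries. These 2 libraries had been singled out by the ratio of the same 2 sequences, so leaving them out raises r in itself. No p is given for that choice, and no relation is read from it.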

How the data were processed

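Spermatogonia of 19 mice were profiled by mRNA-seq, and groups followed the sample labels. Directional poly(A) libraries were read as single ends of 50 bases. The authors mapped the reads to retrotransposon consensus sequences with hisat2 (version not given in the sources used here) and deposited RPM, mapped reads scaled to the mapped total, rounded to 2 decimals. The submitters' processing notes also name Trim Galore and mm10. Whole reads could not be recovered from the deposited RPM, so no count model was used.

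From these values, limma 3.58.1 under R 4.3.3 was run on log2(RPM + 1) with a mean-variance trend (two-sided, Benjamini-Hochberg over 114 subfamilies, threshold 0.05). Ratios took RPM without a pseudocount and were compared by two-sided exact permutation tests (scipy 1.17.1), and relations used 100000 permutations. On simulated data the fit called 20 of 20 raised subfamilies for *Pld6* KO and 18 of 20 for *Dnmt3l* KO. It also called 2 and 1 of 74 unchanged subfamilies. The run was set to stop below 18 raised calls. Low subfamilies were lifted above their real RPM and each kept 1 spread in all groups, so recovery at low RPM was not tested. The 3 L1 sequences, the list of other L1 subfamilies and the tests were chosen with earlier results of these data known. Subfamilies were named by rule: the 3 sequences, other L1 past the threshold in a KO, the 3 closest in pattern, and neighbours in the order of fold changes. MMERGLN_LTR, IAPLTR1_Mm, IAPEy-int and IAPEY_LTR are named outside that rule, after their values were seen. ETnERV, MMETn-int and L1_Mus3_3end are outside it as well. Alternatives changed the pseudocount, filter, scaling, controls, limma settings, replicate block and single libraries. No 2 libraries were alike enough to be duplicates.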

Additional observations from a re-analysis of the deposited data

Results flagged for a closer look

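In *Pld6* KO replicate 4, L1Md_A_3end per L1_Mm_orf2 was 0.236 and stood away from the other 4 KO libraries by 0.857 of the range of the group. Its share of L1Md_A_3end in the L1 signal stood away from the others, which held 9.19% to 9.87%, by 0.859 of the range. Both values are set by the same library and share the RPM of L1Md_A_3end, and 12 measures were looked at in this group, the only one with 4 or more libraries. How often a gap of this size arises by chance over these 12 related measures was not computed.

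The rise over WT was tested for a difference between the lines, and 2 of the 3 sequences differed in limma. *Dnmt3l* KO minus *Pld6* KO was -1.71 for L1Md_A_3end and -1.64 for L1_Mm_orf2 on the log2 scale. Both passed under 14 of 15 other settings and in all 13 fits that each left out 1 library, and neither passed with scaling by B1 and B2 RPM.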

How the results depend on the processing

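In both KO comparisons with WT and in the comparison between the KO groups, all 3 L1 sequences kept their direction and their call under every alternative run, and no ratio difference with an unadjusted exact p at or under 0.05 changed its direction. With pooled WT and het controls in the *Pld6* line, the log2 rise of 5′ end per 3′ end was 2.08 and that of 5′ end per ORF2 was 1.86, each a shift larger than the pooled SD of 0.517 and 0.324 between libraries. With 4 *Pld6* KO libraries against 3 WT libraries no exact p can fall below 0.0571. Of 676 values under alternatives, 627 kept direction and side or, for counts and for designs too small to pass, stayed close to the reported value, and most of the others were counts over all subfamilies or differences near 0. Read depth is unknown, which limits L1Md_A_5end most in the libraries where it is low. The cause of the changes below was not tested.

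The difference between the mutants was not called for L1Md_A_3end (-1.17) and L1_Mm_orf2 (-1.07) with B1 and B2 scaling. For L1Md_A_5end it was called with pooled WT and het controls (-1.66), with het controls (-2.11), with *Pld6* het replicate 1 left out of either (-1.37 and -1.63) and with the 3 *Pld6* libraries set aside (-1.47), and ranged from -1.47 to -1.02 with 1 library left out, called only without *Pld6* KO replicate 4. Its 14 calls over all subfamilies became 9 with a pseudocount of 0.5, 4 with B1 and B2, 9 with RPM outside L1 and IAP, 22 with pooled controls, 27 with those but without *Pld6* het replicate 1, 26 with the 3 libraries set aside, and 7 to 19 with 1 library left out, where they were 8 and 7 without *Dnmt3l* WT replicate 1 or 2 and 9 without *Dnmt3l* KO replicate 2 or 3 or *Pld6* WT replicate 2. Calls in *Pld6* KO against WT were 53 with het controls instead of 35, and those in *Dnmt3l* KO were 74 and 73 instead of 46 with pooled or het controls without *Pld6* het replicate 1. Between the KO groups 36 calls became 16 with B1 and B2 and ranged from 25 to 37 with 1 library left out.

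Sign changes were all in values that were never called. For *Pld6* het against WT they were L1Md_A_3end at -0.0065 without WT replicate 1 (-0.0065 to 0.16 over the libraries left out), and L1Md_A_5end at 0.12 and L1_Mm_orf2 at 0.30 with the 3 libraries set aside. L1Md_A_5end in *Dnmt3l* het was at 0.049 with median ratios and from -0.11 to 0.079 with 1 library left out, and 1 subfamily was called when only the groups compared were fitted. Between the WT groups L1_Mm_orf2 was at 1.14 with B1 and B2 and 0.72 with RPM outside L1 and IAP, and from -0.13 to 0.052 with 1 library left out. L1Md_A_3end ranged from -0.060 to 0.11 there. The 1 call between the WT groups became 0 without the filter, with each of the 3 scalings, with only the groups compared and without the trend, and 0 to 2 with 1 library left out.

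Nothing in the labels ties same-numbered libraries to a shared litter or day. The correlations of their deviations were mixed, with 0.11, -0.30 and 0.02 for KO and WT and 0.27, 0.46 and -0.26 for het and WT in the *Pld6* line, and 0.09 and 0.13 for KO and WT and 0.19 and 0.31 for het and WT in the *Dnmt3l* line, so the numbers were not taken to pair the libraries. With the replicate number as a block, log2 fold changes were 5.15, 3.55 and 3.75 in *Pld6* KO and 3.76, 1.75 and 1.91 in *Dnmt3l* KO for L1Md_A_5end, L1Md_A_3end and L1_Mm_orf2. Under the block, 19 subfamilies were called between the KO groups and 2 between the WT groups, and no other call of the 3 sequences changed.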

Other observations

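The non-L1 subfamilies whose pattern over the 19 libraries came closest to the L1 sequences were ETnERV for L1Md_A_5end (Pearson r = 0.956) and MMETn-int for L1Md_A_3end (0.929) and L1_Mm_orf2 (0.945), given as values with no test.
L1_Mus3_orf2 per L1_Mus3_3end, a ratio of the same kind in an older L1, was 7.55 to 11.6 in all WT and het libraries except *Pld6* het replicate 1, at 23.4. It was 10.8 to 12.6 in *Dnmt3l* KO and up to 19.2, with every library above the *Dnmt3l* KO range, in *Pld6* KO, where replicate 4 did not stand apart.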
